A study of Homo sapiens with 16 samples.

Results

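The 10 genes described here encode the 5 NF-kB subunits (RELA, RELB, REL, NFKB1, NFKB2), 3 inhibitors of the IkB family (NFKBIA, NFKBIB, NFKBIE) and the regulators TNFAIP3 and BIRC3. They were chosen by symbol from 55510 gene symbols, and all 10 were among the 22007 genes with enough counts to be tested. RNA was sequenced from CAL51, an established human breast cancer line labelled triple negative, whose karyotype is mostly near diploid, grown at passage 10 in DMEM with fetal bovine serum. Cells received CC-671, an inhibitor of the kinases TTK and CLK2, at 3 or 10 µM, or its vehicle DMSO, for 6 or 24 h. There were 2 libraries in each of the 2 vehicle groups and 3 in each of the 4 treated groups, 16 in all, from 1 cell line. No group received a cytokine or another NF-kB stimulus.

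NF-kB is a family of dimeric transcription factors that bind kappa-B sites in DNA. In resting cells the dimers are held in the cytoplasm by IkB proteins. Upon a signal from receptors such as those for TNF or IL-1, the IKK kinase complex marks IkB for degradation, and the dimers enter the nucleus. Among the genes they switch on are several of their own inhibitors, including NFKBIA and TNFAIP3, so that the response is limited by feedback. A second, non-canonical route runs through the kinase NIK (MAP3K14) and turns the NFKB2 precursor into a subunit that pairs with RELB.

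Kappa-B motifs near the start sites of these genes were looked up in the RefSeq promoter table (GRCh38.p14), which holds windows of 300 bases, from 250 before to 50 after a start. Windows were found for 8 of the 10 genes, 13 windows in all, and RELB and NFKBIE were not matched. The kappa-B consensus, searched on both strands, was present in a window of 7 of the 8 genes, all but RELA, against 7.09% of the 27305 genes in the table. By window, it was present in 8 of 13 against 5.91% of all 35116. The stretches below are shown for 5 genes that behaved differently after CC-671, with the letters of consensus matches in capitals, which mark a match of letters and not a bound site.
NFKBIA, chr14:35404796-35404855, minus strand: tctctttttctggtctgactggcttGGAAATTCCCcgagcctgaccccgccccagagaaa
TNFAIP3, chr6:137867167-137867238, plus strand: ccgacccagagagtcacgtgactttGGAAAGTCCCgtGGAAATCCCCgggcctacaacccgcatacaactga
NFKBIB, chr19:38899916-38899968, plus strand: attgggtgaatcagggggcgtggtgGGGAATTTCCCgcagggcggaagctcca
NFKB2, chr10:102394446-102394534, plus strand: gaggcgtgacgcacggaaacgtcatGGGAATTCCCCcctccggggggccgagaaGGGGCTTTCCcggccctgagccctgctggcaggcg
BIRC3, chr11:102317260-102317319, plus strand: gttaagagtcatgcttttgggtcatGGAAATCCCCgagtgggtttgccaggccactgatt
All of these matches lay upstream of the annotated start. The stretches of TNFAIP3 and NFKB2 each hold matches at separate places, matches on both strands occur in those of NFKBIB and NFKB2, and BIRC3 has a further match closer to its start that is not printed.

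Libraries held 104609173 to 123789361 read pairs assigned to genes. Levels are given in CPM, counts scaled for library size and TMM factor, with the SD over 2 vehicle or 3 treated libraries. Fold changes are on the log2 scale ± SE from edgeR's quasi-likelihood fit to all 16 libraries, and a gene is said to have risen or fallen where its Benjamini-Hochberg adjusted p over all genes tested was under 0.05. Replicates are biological per the labels, which name no separate cultures, so p-values reflect only how these 16 libraries vary. In bulk RNA, fewer cells of a kind and less RNA per cell cannot be told apart. Of 6 epithelial markers, KRT8 (536 to 700 CPM) and EPCAM (264 to 371 CPM) were high throughout. KRT18 and KRT19 averaged 9.11 and 8.13 in log2 CPM over all libraries, CDH1 5.14 and CLDN4 only 1.65. CLDN4 rose by log2 1.68 and 1.87 at 3 and 10 µM at 6 h. CDH1 rose by 0.13 and 0.21 at 6 h and fell by 0.65 and 0.77 at 24 h. The hormone receptor genes ESR1 and PGR reached at most 0.0477 and 0.0356 CPM. ERBB2 RNA was at 84.7 to 192 CPM, lower in all treated than in all vehicle libraries. Of 10 leukocyte markers MS4A1 and NKG7 were at 0 in all libraries. At 6 h the sum of all 10, most of it PTPRC, was 10.7 CPM in vehicle and 11.5 to 12.6 CPM in treated libraries. At 24 h it was 13.1 to 13.7 against 6.30 to 7.86 CPM. PTPRC fell at 24 h by log2 0.99 and 1.26 at 3 and 10 µM. Of 5 leukocyte markers tested, 3 rose and 1 fell at 3 µM and 24 h. At 10 µM and 24 h 2 rose and 1 fell. At 6 h 3 rose and 0 fell at 3 µM, and 3 rose and 1 fell at 10 µM. Over all genes tested 29.7 to 34% rose and 30.9 to 33.6% fell in these comparisons. The sum of 7 fibroblast markers was 263 to 274 and 301 to 319 CPM at 6 h and 329 to 333 and 258 to 273 CPM at 24 h, mostly COL3A1 and PDGFRB, with DCN and FAP at or near 0. For 4 endothelial markers it was 12.3 to 13.3 and 10.7 to 12.3 CPM at 6 h and 19.2 to 19.5 and 8.44 to 10.7 CPM at 24 h, mostly CDH5, with KDR near 0. The part of these markers in the results was not tested.

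The 3 libraries of 10 µM at 6 h were unequal. Replicate 1 of this group was above its group mean in 9 of the 10 genes, by 0.20 on average on the log2 scale, while replicates 2 and 3 averaged -0.07 and -0.13. In the other 13 libraries this average lay between -0.04 and 0.03. TNFAIP3 was at 58.9 CPM in replicate 1 and at 35.4 and 33.1 CPM in the others, and the chemokine gene IL8 was at 86.6 CPM against 15.9 and 15.4 CPM. Results of the 10 genes at 10 µM and 6 h are therefore given with and without this library. All groups share 1 estimate of spread per gene, so the 10 genes' other comparisons are also given without it where that moves a call, a choice made after seeing the data. For other pathway genes the value without it is given where the 2 values differ by more than 0.1.

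**Figure D1:**
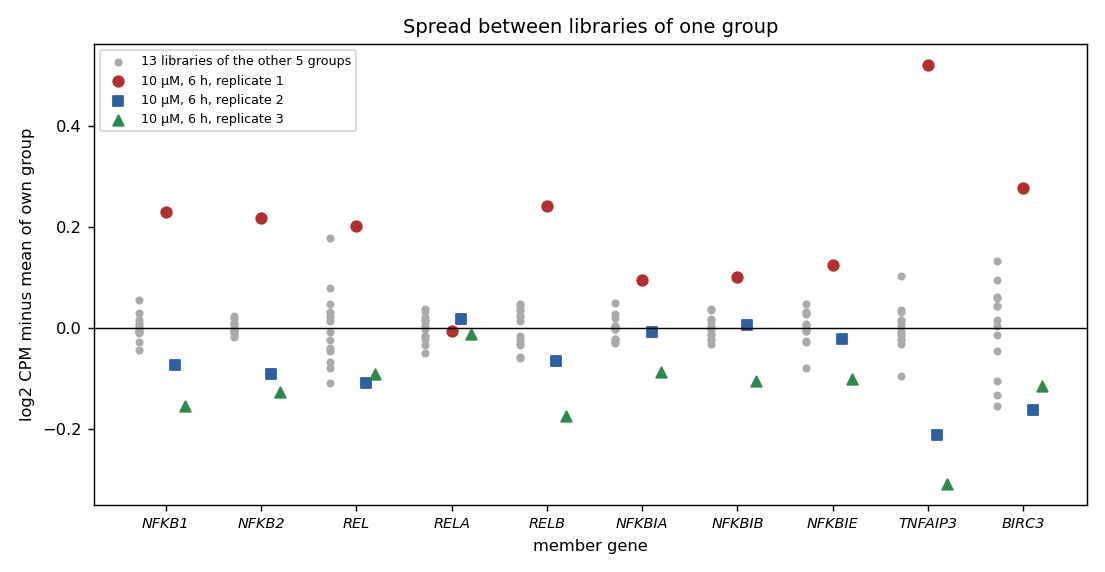
Log2 CPM of each member gene (x axis) minus the mean of its own group (y axis), for the 3 libraries of 10 µM at 6 h in colour and the 13 other libraries in grey. Replicate 1 of 10 µM at 6 h stands above its group in 9 of 10 genes, farthest for TNFAIP3, and RELA is the exception.

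Corrected for gene length, NFKBIA was the most abundant of the 10 in vehicle cells at 6 h, at 40.5 ± 0.13 CPM per kb of exon (GENCODE 29). NFKB2 (18.5 ± 0.11), RELA (16.0 ± 0.05), NFKBIE (15.3 ± 0.1), NFKBIB (13.9 ± 0.04) and NFKB1 (11.97 ± 0.1 CPM per kb) followed. RELB (6.38 ± 0.15), TNFAIP3 (4.47 ± 0.14), BIRC3 (1.81 ± 0.24) and REL, the c-Rel subunit best known from lymphocytes (0.42 ± 0.03 CPM per kb), were lower. CAL51 thus held RNA of all 5 subunits, with RELA, NFKB1 and NFKB2 well above RELB and REL. The genes are on different chromosomes except for NFKBIB and RELB (19), NFKBIE and TNFAIP3 (6) and RELA and BIRC3 (11). The NFKBIA gene is compact, 3.24 kb with 6 exons, whereas NFKB1 spans 116 kb with 24 exons.

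**Figure D2:**
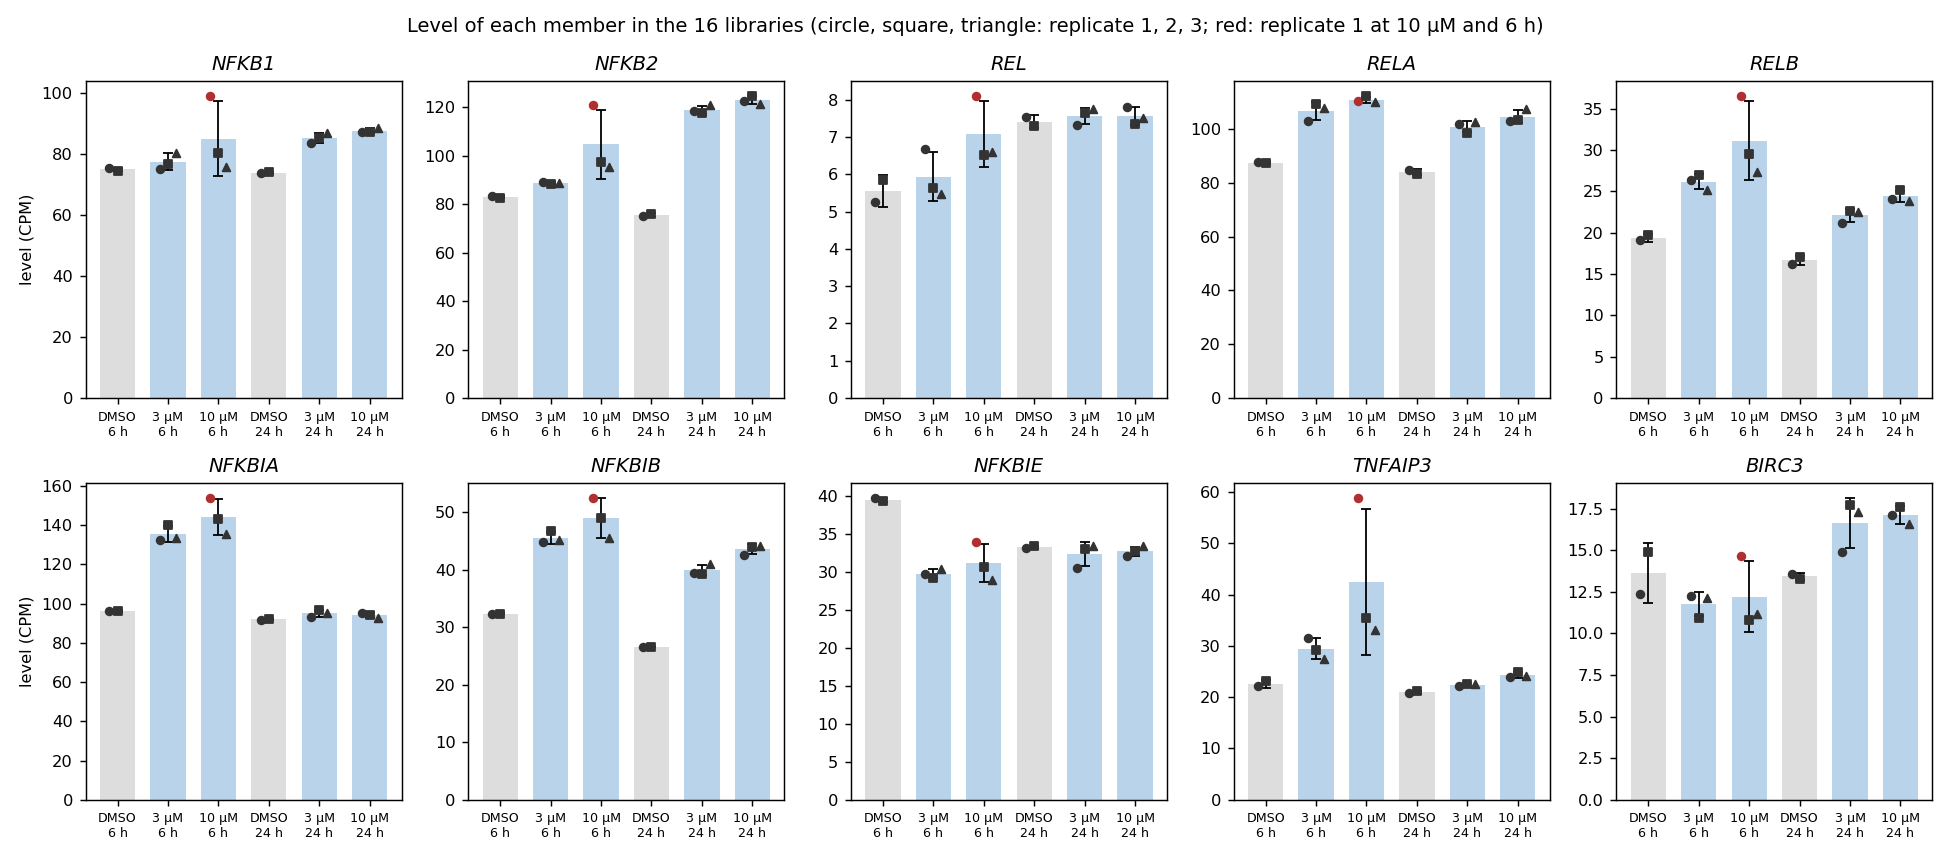
Level in CPM (y axis, linear, from 0) of each member in the 6 groups (x axis). Bars are group means, error bars the SD and points the libraries. By mean, RELA, RELB, NFKBIA, NFKBIB and TNFAIP3 are highest in treated cells at 6 h. NFKB1, NFKB2 and BIRC3 are highest in treated cells at 24 h, and NFKBIE in vehicle at 6 h.

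At 6 h of 3 µM CC-671, 4 of the 10 genes rose and 1 fell, and at 10 µM 7 rose and 1 fell. Over all genes tested, 63.2% were called at 3 µM and 67.6% at 10 µM, in about equal numbers up and down (31.6% and 31.6%, 34% and 33.6%), so calls as such were common. The median log2 fold change of the 10 genes was 0.19 at 3 µM and 0.35 at 10 µM, against 0.02 and 0.01 over all genes tested. Treated and vehicle libraries did not overlap for 8 of the 10 genes at 3 µM and for 9 at 10 µM, which also held for 72.7% and 74.6% of all genes. Without replicate 1 at 10 µM, 7 rose and 2 fell at 10 µM, and 6 rose and 2 fell at 3 µM. NFKB2, TNFAIP3 and BIRC3 then passed at 3 µM. Of all genes, 7112 rose and 7274 fell at 10 µM in that fit, and 6835 rose and 7162 fell at 3 µM. Both doses were compared with the same vehicle libraries.

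RELA, the p65 subunit of the main canonical dimer, was the steadiest of the subunits. Its level was 87.6 and 87.2 CPM in vehicle at 6 h, 103.1, 109.2 and 107.7 CPM at 3 µM, and 110.2, 112.2 and 109.8 CPM at 10 µM. At 24 h it was 84.9 and 83.1 CPM in vehicle, 101.8, 98.4 and 102.4 CPM at 3 µM, and 103.0, 103.3 and 107.3 CPM at 10 µM. Every treated library lay above every vehicle library, with no overlap at either time. RELA rose by log2 0.29 ± 0.03 (adjusted p = 1.3e-08) and 0.34 ± 0.03 (3.8e-10; 0.33 without replicate 1) at 6 h and by 0.26 ± 0.03 (8.9e-08) and 0.32 ± 0.03 (2.8e-09) at 24 h. The difference between its effects at the 2 times was -0.02 ± 0.05 at 3 µM and -0.03 ± 0.05 at 10 µM (adjusted p = 0.71 and 0.67).

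RELB, the partner of processed NFKB2 in the non-canonical route, rose more. It was at 19.1 and 19.7 CPM in vehicle at 6 h, at 26.4, 27.0 and 25.1 CPM at 3 µM, and at 36.5, 29.5 and 27.3 CPM at 10 µM. All 6 treated libraries were above vehicle, and the highest was replicate 1 at 10 µM. The log2 fold change was 0.43 ± 0.09 at 3 µM (adjusted p = 0.0011) and 0.68 ± 0.09 at 10 µM (1.9e-05), or 0.54 at 10 µM without that library (1.8e-10). At 24 h RELB stood at 16.3 and 17.1 CPM in vehicle, 21.2, 22.6 and 22.5 CPM at 3 µM and 24.1, 25.2 and 23.9 CPM at 10 µM. The groups again did not overlap, and the rises were 0.41 ± 0.1 (0.0024) and 0.55 ± 0.1 (2.2e-04).

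NFKB2, which encodes the p100 precursor of p52, rose mainly at 24 h. At 6 h it was at 83.2 and 82.5 CPM in vehicle, 89.2, 88.3 and 88.7 CPM at 3 µM and 121.0, 97.5 and 95.2 CPM at 10 µM. The log2 fold change at 6 h was 0.10 ± 0.07 at 3 µM, past the threshold only without replicate 1 of 10 µM at 6 h (0.09, adjusted p = 0.011) or with only the 2 groups fitted (adjusted p = 0.040, range over alternatives 0.011 to 0.48). At 10 µM it rose by 0.34 ± 0.07 (0.0014), by 0.21 without that library (2.0e-06), and the call was lost with only the 2 groups fitted (0.057). At 24 h vehicle was at 75.0 and 76.1 CPM, 3 µM at 118.2, 117.5 and 120.7 CPM and 10 µM at 122.6, 124.5 and 121.2 CPM. These groups stood far apart, with rises of 0.65 ± 0.08 (6.6e-06) and 0.70 ± 0.08 (2.9e-06), which were called in every alternative run.

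NFKB1, the gene of p105 and p50, changed least clearly. It was at 75.3 and 74.4 CPM in vehicle at 6 h, and at 98.9, 80.2 and 75.7 CPM at 10 µM, where only replicate 1 stood out. The log2 fold change at 6 h was 0.05 ± 0.08 at 3 µM (adjusted p = 0.64) and 0.18 ± 0.08 at 10 µM (0.073), or 0.05 without replicate 1 (0.26). At 24 h it was at 73.6 and 74.0 CPM in vehicle, 83.6, 85.2 and 86.9 CPM at 3 µM and 87.1, 87.0 and 88.5 CPM at 10 µM. Treated libraries were all higher at 24 h, and NFKB1 rose by 0.21 ± 0.08 (0.049) and 0.25 ± 0.08 (0.022). The call at 3 µM was lost in 7 of 14 alternatives, among them leaving out any library of the 2 groups (highest adjusted p 0.16 without vehicle replicate 1), and that at 10 µM without either vehicle library (up to 0.094).

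REL was higher in vehicle at 24 than at 6 h and higher with 10 µM at 6 h. It was at 5.25 and 5.86 CPM in vehicle at 6 h, 6.69, 5.64 and 5.48 CPM at 3 µM, and 8.10, 6.52 and 6.61 CPM at 10 µM. At 10 µM all 3 libraries were above vehicle, a rise of log2 0.35 ± 0.09 (adjusted p = 0.0011; 0.23 and 0.012 without replicate 1), while the 3 µM libraries overlapped vehicle (0.10 ± 0.09, 0.36). At 24 h vehicle was at 7.53 and 7.29 CPM, and the treated libraries lay between 7.33 and 7.81 CPM. The groups overlapped and the fold change was 0.03 ± 0.08 at each dose (0.77 and 0.78).

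The IkB genes went 3 different ways. NFKBIA encodes IkB-alpha, the inhibitor that NF-kB itself resynthesises fastest. It was at 96.4 and 96.0 CPM in vehicle at 6 h, 132.6, 139.9 and 133.3 CPM at 3 µM, and 153.9, 143.1 and 135.6 CPM at 10 µM. All treated libraries were well above vehicle, and NFKBIA rose by log2 0.49 ± 0.04 (adjusted p = 1.0e-11) and 0.58 ± 0.04 (2.0e-13), or 0.52 at 10 µM without replicate 1. At 24 h it was at 91.9 and 92.1 CPM in vehicle, 93.0, 96.8 and 95.1 CPM at 3 µM and 95.2, 94.2 and 92.5 CPM at 10 µM. Treated libraries were still all above vehicle but by little, with fold changes of 0.05 ± 0.04 (0.31) and 0.03 ± 0.04 (0.51). With no scaling factor these were 0.15 and 0.14 (0.0022 and 0.0029), and with only the 2 groups fitted adjusted p was 0.017 and 0.045.

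NFKBIB, the gene of IkB-beta, stayed high. Its level was 32.3 and 32.4 CPM in vehicle at 6 h, 44.8, 46.7 and 45.2 CPM at 3 µM, and 52.5, 49.1 and 45.5 CPM at 10 µM. At 24 h it was 26.5 and 26.6 CPM in vehicle, 39.5, 39.3 and 40.9 CPM at 3 µM, and 42.6, 44.0 and 44.1 CPM at 10 µM. Every treated library exceeded every vehicle library of its time. NFKBIB rose by log2 0.49 ± 0.04 (adjusted p = 8.4e-11) and 0.60 ± 0.04 (1.1e-12) at 6 h and by 0.59 ± 0.04 (7.2e-12) and 0.71 ± 0.04 (8.4e-14) at 24 h. Without replicate 1 the value at 10 µM and 6 h was 0.54.

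NFKBIE, the gene of IkB-epsilon, went down. It was at 39.7 and 39.4 CPM in vehicle at 6 h, 29.8, 29.2 and 30.4 CPM at 3 µM, and 33.9, 30.6 and 28.995 CPM at 10 µM. All 6 treated libraries were below vehicle, and NFKBIE fell by 0.41 on the log2 scale at 3 µM (SE 0.05, adjusted p = 1.9e-08) and by 0.34 at 10 µM (SE 0.05, 3.6e-07), or by 0.42 without replicate 1. At 24 h it was at 33.2 and 33.4 CPM in vehicle and at 30.6 to 33.5 CPM in the 6 treated libraries. These overlapped, with fold changes of -0.04 ± 0.05 and -0.02 ± 0.05 (0.50 and 0.71).

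TNFAIP3 encodes A20, a ubiquitin-editing enzyme that shuts off signals from TNF and Toll-like receptors. At 6 h it was at 22.1 and 23.1 CPM in vehicle, 31.6, 29.2 and 27.5 CPM at 3 µM and 58.9, 35.4 and 33.1 CPM at 10 µM. All treated libraries were above vehicle and all 10 µM libraries above all 3 µM libraries. The log2 fold change at 3 µM was 0.38 ± 0.2 (adjusted p = 0.13) with replicate 1 of 10 µM at 6 h in the fit and 0.37 (8.9e-08) without it (range over alternatives 8.9e-08 to 0.33). At 10 µM TNFAIP3 rose by 0.91 ± 0.2 (0.0021), the largest value of the 10 genes, and by 0.59 without replicate 1 (5.4e-11). The call was lost with only the 2 groups fitted and replicate 1 included (0.11).

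At 24 h TNFAIP3 was close to vehicle again. It was at 20.7 and 21.1 CPM in vehicle, 22.1, 22.7 and 22.5 CPM at 3 µM, and 23.9, 24.9 and 24.1 CPM at 10 µM. The treated libraries were higher without overlap, by log2 0.10 ± 0.21 (adjusted p = 0.70) and 0.21 ± 0.21 (0.39). Without replicate 1 of 10 µM at 6 h the value at 10 µM was 0.21 with adjusted p = 3.2e-04, and with only the 2 groups fitted adjusted p was 0.0048 at 3 µM and 1.6e-07 at 10 µM.

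BIRC3 encodes cIAP2, a ubiquitin ligase of the TNF receptor complex and a known target of NF-kB. It was at 12.4 and 14.9 CPM in vehicle at 6 h, 12.3, 10.9 and 12.1 CPM at 3 µM and 14.7, 10.8 and 11.2 CPM at 10 µM. The 3 µM libraries lay just below vehicle and the 10 µM libraries overlapped it, with log2 fold changes of -0.21 ± 0.13 (adjusted p = 0.17) and -0.16 ± 0.13 (0.31). Without replicate 1 of 10 µM at 6 h both passed, at -0.22 (0.019) and -0.32 (0.0035). At 24 h BIRC3 was at 13.6 and 13.3 CPM in vehicle, 14.9, 17.7 and 17.3 CPM at 3 µM and 17.1, 17.6 and 16.6 CPM at 10 µM. Here all treated libraries were higher, by 0.31 ± 0.13 (0.055) at 3 µM and 0.35 ± 0.13 (0.031) at 10 µM. The 3 µM value passed in 7 of 14 alternatives, among them without replicate 1 of 10 µM at 6 h (0.0022), and the 10 µM value in 8 of 14, lost among others without either vehicle library (up to 0.13).

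**Figure D3:**
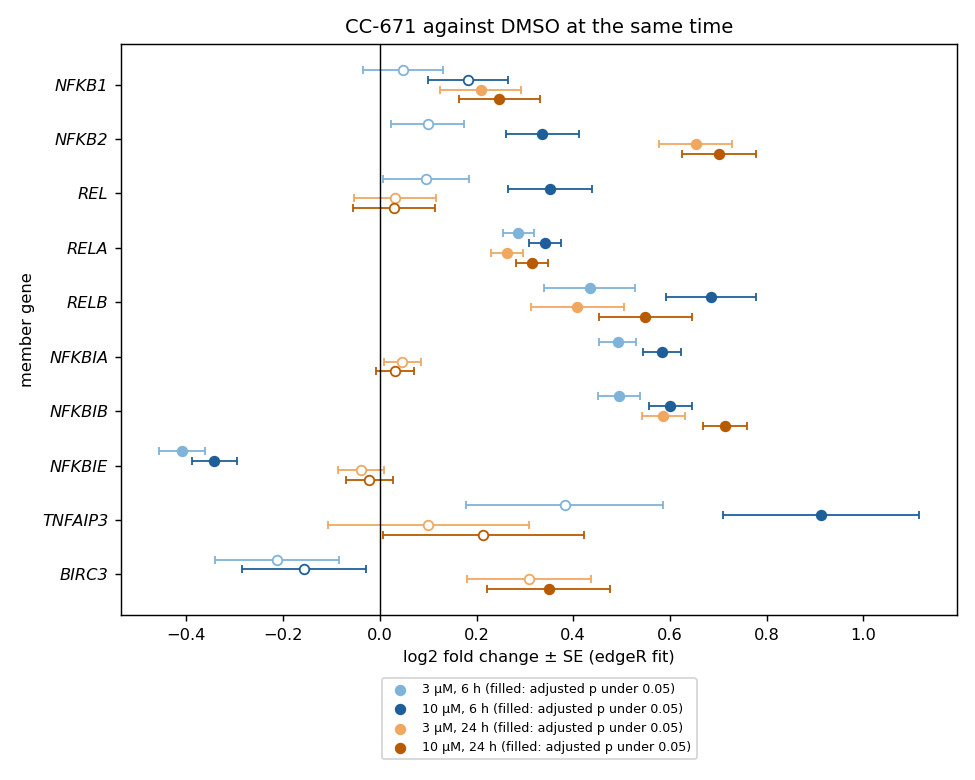
Log2 fold change against DMSO of the same time (x axis) ± SE for each member (y axis), at both doses and times; filled points have adjusted p under 0.05. RELA, RELB and NFKBIB are filled in all 4 comparisons, NFKBIA and NFKBIE at 6 h only, and TNFAIP3 has the largest value, 0.91 at 10 µM and 6 h.

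At 24 h, 5 of the 10 genes rose at 3 µM and 6 at 10 µM, and 0 fell by edgeR, by DESeq2, by limma-voom or at an unadjusted p under 0.05. Over all genes 60.6% were called at 3 µM (29.7% higher, 30.9% lower) and 63.6% at 10 µM (31.3% higher, 32.3% lower). The median log2 fold change of the 10 genes was 0.24 and 0.28, against 0.00 and 0.01 over all genes tested. Of the 10 genes, 8 did not overlap with vehicle at each dose, all higher, and 75.4% and 77.5% of all genes did not overlap. With no scaling factor the median over all genes moved to 0.10 and 0.12, and the share of called genes that were higher moved from 48.9 to 62.9% and from 49.2 to 62.3%, so that values near 0 at 24 h depend on the scaling. The rises of NFKB2, RELA, RELB and NFKBIB were 0.26 or more with TMM. Leaving out the factor moved fold changes upwards, so their calls in that setting are no check of these rises.

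Whether the response changed with time was tested as the effect at 24 h minus the effect at 6 h. At 3 µM 4 of the 10 genes differed, 3 upwards, against 49.3% of all genes (25.6% upwards, 23.7% downwards). At 10 µM 5 differed, 3 upwards, against 54% (27.6% upwards, 26.4% downwards). Without replicate 1 of 10 µM at 6 h, 6 differed at 3 µM (4 upwards) and 7 at 10 µM (5 upwards). Of all genes, 11009 (5863 upwards) and 11755 (6110 upwards) differed in that fit. NFKBIA lost its rise, with a difference of -0.44 ± 0.06 (adjusted p = 1.2e-07) at 3 µM and -0.55 ± 0.06 (1.6e-09) at 10 µM. NFKB2 gained, by 0.55 ± 0.11 (6.9e-04) and 0.36 ± 0.11 (0.010). For NFKBIE the difference was 0.37 ± 0.07 (4.6e-05) and 0.32 ± 0.07 (2.2e-04). Its vehicle mean fell from 39.6 CPM at 6 h to 33.3 CPM at 24 h. The treated means went from 29.8 to 32.4 CPM at 3 µM and from 31.2 to 32.8 CPM at 10 µM. BIRC3 passed against vehicle only at 10 µM and 24 h in the full fit. Its difference between times was 0.52 ± 0.18 (0.032) and 0.51 ± 0.18 (0.034). These 2 calls were lost in 8 of 19 and 10 of 18 alternatives. TNFAIP3 was at -0.28 ± 0.29 (0.46) and -0.70 ± 0.29 (0.064) in the full fit, and at -0.27 (0.0013) and -0.38 (4.2e-05) without replicate 1 of 10 µM at 6 h. Without that library NFKB1 also passed, at 0.17 (0.0035) and 0.20 (0.0014), as did NFKBIB at 10 µM, at 0.17 (0.0097), against 0.16 ± 0.12, 0.07 ± 0.12 and 0.11 ± 0.06 in the full fit. REL differed at 10 µM (-0.32 ± 0.12, 0.029), a call lost without that replicate (-0.20, 0.11) and in 6 of 18 alternatives in all. With no scaling factor the share of called genes with a positive difference moved from 51.9 to 61.9% at 3 µM and from 51.1 to 61.3% at 10 µM.

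**Figure D4:**
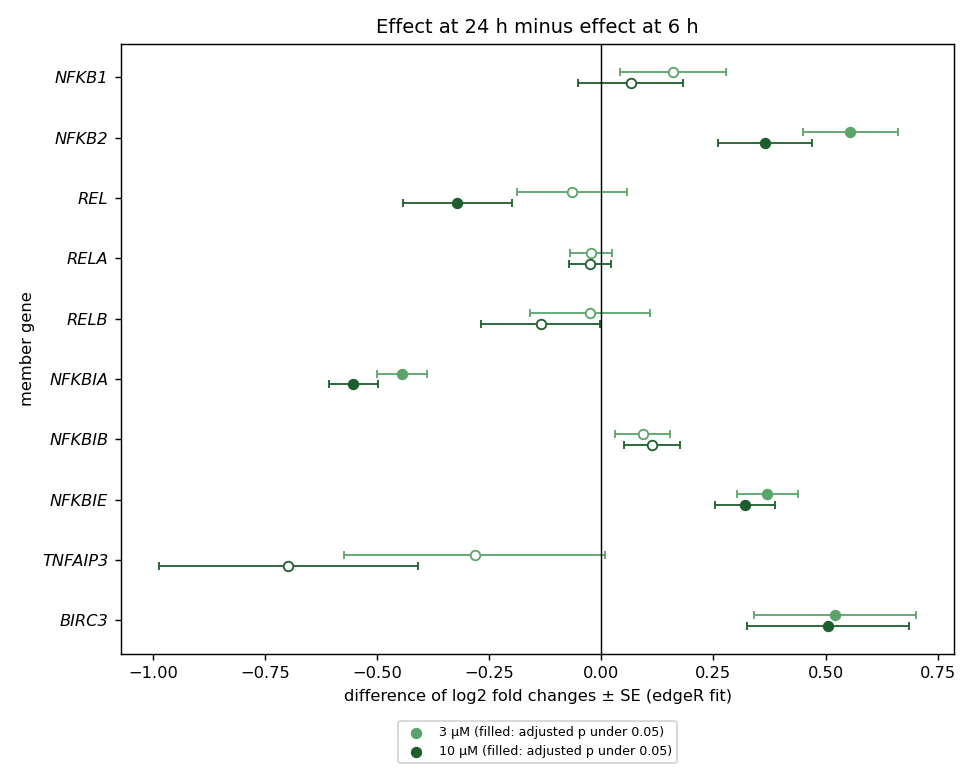
Difference between the log2 fold changes at 24 h and 6 h (x axis) ± SE for each member (y axis) at 3 and 10 µM; filled points have adjusted p under 0.05. NFKBIA lies to the left at both doses, NFKB2, NFKBIE and BIRC3 to the right, and RELA and NFKBIB near 0.

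Doses were compared directly within each time. At 6 h 5 of the 10 genes were higher at 10 than at 3 µM, where 24.9% of all genes were called (12% higher, 12.9% lower). The values were small, 0.24 ± 0.07 for NFKB2, 0.26 ± 0.08 for REL, 0.25 ± 0.08 for RELB, 0.11 ± 0.04 for NFKBIB and 0.09 ± 0.03 for NFKBIA (adjusted p = 0.020, 0.018, 0.039, 0.041 and 0.0496). TNFAIP3 had the largest dose difference, 0.53 ± 0.18, with adjusted p = 0.051. Without replicate 1 at 10 µM 2 genes passed, NFKB2 at 0.12 (0.0038) and TNFAIP3 at 0.22 (9.8e-04). REL, RELB, NFKBIA and NFKBIB did not pass in that fit, where 4402 of all genes did. The count was 1, 2 and 0 without 3 µM replicate 1, 2 and 3 and 8 without 10 µM replicate 3. RELA differed by 0.05 ± 0.03 between doses (0.18).

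At 24 h the doses were nearly level. Of the 10 genes 1 was called, NFKBIB at 0.13 ± 0.04 (adjusted p = 0.043), where 6.35% of all genes were called (2.49% higher, 3.85% lower). The call was lost without any 1 of the 6 libraries compared. The 10 µM libraries lay above all 3 µM libraries for 6 of the 10 genes, against 31.3% of all genes without overlap in either direction. With no scaling factor the share of called genes that were higher at 10 µM moved from 39.3 to 50.2%. RELB, at 0.14 ± 0.08 (0.39), passed without replicate 1 of 10 µM at 6 h (0.030), which gave 2 calls, and with only the 2 groups fitted (0.0019), which gave 3. The other 8 genes differed by -0.02 to 0.11 between doses.

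In vehicle alone, 3 of the 10 genes differed between 24 and 6 h, against 20.5% of all genes (11% higher, 9.55% lower). REL was higher at 24 h by 0.42 ± 0.1 (adjusted p = 0.0028, and 0.060 without vehicle replicate 1 of 6 h), while NFKBIB fell by 0.28 (SE 0.05, 1.1e-04) and NFKBIE fell by 0.25 (SE 0.05, 9.6e-04). NFKB2 and RELB were at -0.13 and -0.22, and passed when replicate 1 of 10 µM at 6 h was out of the fit (0.0023 and 0.0022), in no fit that left out a vehicle library, and in 2 and 3 of the other settings. RELA, NFKBIA and NFKB1 stayed within 0.07 of their 6 h level. NFKBIE in vehicle went from 39.6 ± 0.26 to 33.3 ± 0.18 CPM, while its treated groups averaged 29.8 to 31.2 CPM at 6 h and 32.4 to 32.8 CPM at 24 h.

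The ligands that start NF-kB signals were mostly scarce. Of 13 ligands listed 10 were tested, and at 10 µM 5 rose and 2 fell at 6 h and 5 rose and 3 fell at 24 h. At 3 µM 2 rose and 2 fell at 6 h and 3 rose and 2 fell at 24 h. Over all genes tested, 31.6% rose and 31.6% fell at 3 µM, and 34% and 33.6% at 10 µM, at 6 h. At 24 h the shares were 29.7% and 30.9% at 3 µM, and 31.3% and 32.3% at 10 µM. TNF, the classical inducer, was at 0.984 and 1.07 CPM in vehicle at 6 h and at 2.93, 1.09 and 1.05 CPM at 10 µM, where only replicate 1 was high, with adjusted p from 0.12 to 0.87 in the 4 comparisons with vehicle. Its log2 fold change at 10 µM and 6 h was 0.73 with replicate 1 and 0.05 without it, and it passed only when replicate 2 or 3 was left out (0.043 and 0.030). LTA, lymphotoxin alpha, was at 0.117 and 0.146 CPM in vehicle at 6 h and at 8.73, 6.85 and 8.496 CPM at 10 µM, and at 24 h it was at 0.125 and 0.128 against 6.71, 7.22 and 6.57 CPM. LTA was thus near the limit of detection in vehicle, at 13 to 17 read pairs a library, and at 4.70 to 8.73 CPM at both doses and times, a rise of 5.39 to 5.92 on the log2 scale. IL1A rose at 10 µM by log2 1.95 ± 0.46 at 6 h and 1.82 ± 0.54 at 24 h, and IL1B by 1.79 ± 0.42 and 1.44 ± 0.49, but both were low, at most 1.79 and 0.341 CPM, reached in replicate 1. Without that library IL1A rose by 1.34 (3.3e-05) and IL1B by 1.31 (0.0090) at 6 h, and IL1A also passed at 3 µM, at 0.87 (0.0028) and 1.21 (4.4e-04). With only the 2 groups fitted IL1A lost the call at 10 µM and 6 h (0.062), and at 10 µM and 24 h IL1A lost it without either vehicle library (0.072 and 0.055) and IL1B without vehicle replicate 2 (0.157) or 10 µM replicate 2 (0.057). IL33, a nuclear alarmin of the IL-1 family, fell by 0.67 at 3 µM and 1.40 at 10 µM at 6 h (1.30 without replicate 1), and by 0.34 and 0.35 at 24 h.

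Receptors changed in both directions. Of 17 tested, 4 rose and 6 fell at 3 µM and 3 rose and 7 fell at 10 µM at 6 h, and 9 rose and 3 fell, then 9 rose and 4 fell at 24 h. Their median log2 fold change was 0.07 and 0.02 at 6 h and 0.25 and 0.24 at 24 h. Over all genes tested, 29.7 to 34% rose and 30.9 to 33.6% fell in these comparisons. TNFRSF1B, the second TNF receptor, fell at 10 µM by 0.83 at 6 h and by 1.88 at 24 h, where it was at 11.5 and 10.8 CPM in vehicle and 2.90, 3.07 and 3.16 CPM at 10 µM. The IL-1 receptor gene IL1R1 fell by 0.91 and 1.02 and TLR5 by 0.96 at 6 h. TNFRSF10B, a TRAIL death receptor, rose by 0.60 ± 0.05 and 0.84 ± 0.05, from 115 and 118 CPM in vehicle to 193, 169 and 167 CPM at 6 h. The main TNF receptor gene TNFRSF1A, at 112 to 139 CPM in the 16 libraries, rose by 0.14 and 0.18 at 24 h. At 6 h it was at 0.07 and 0.08 (adjusted p = 0.037 and 0.030), calls lost in several alternatives, among them leaving out either vehicle library (up to 0.228).

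Kinases and adaptors between receptor and IkB fell more often than they rose at 6 h. Of 25 genes tested, 5 rose and 14 fell at 3 µM, and 5 rose and 13 fell at 10 µM, with median log2 fold changes of -0.19 and -0.24 against 0.02 and 0.01 over all genes. At 24 h 8 rose and 9 fell at 3 µM, and 10 rose and 8 fell at 10 µM, with medians of -0.04 and -0.00. Across these comparisons 29.7 to 34% of all genes tested rose and 30.9 to 33.6% fell. At 10 µM and 6 h the TAK1 partner TAB1 fell by 1.07, the IL-1 receptor kinase IRAK4 by 1.02, the TNF receptor kinase RIPK1 by 1.00 and RNF31, the catalytic part of the linear ubiquitin ligase, by 0.85. IRAK4 was at 15.03 ± 0.12 CPM in vehicle and 7.43 ± 0.27 CPM at 10 µM at 6 h, and at 16.4 ± 0.32 and 21.7 ± 0.61 CPM in the same order at 24 h, where it was higher with treatment. At 24 h IKBKE, an IKK-related kinase, fell by 1.01 and TRAF5 by 0.47, while RBCK1 rose by 0.48 and BIRC2, the gene of cIAP1, by 0.43.

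Of the IKK complex itself, CHUK (IKK-alpha) fell in all 4 comparisons with vehicle. It was at 80.6 and 84.7 CPM in vehicle and 57.5, 56.9 and 58.9 CPM at 10 µM at 6 h, and the log2 fold changes were -0.49, -0.52, -0.38 and -0.32 for 3 and 10 µM at 6 h and 3 and 10 µM at 24 h. IKBKB (IKK-beta) fell by 0.19 at 3 µM and 6 h (adjusted p = 0.010) and rose by 0.20 at 10 µM and 24 h (0.0059), with -0.11 and 0.11 in the others; these calls were lost without vehicle replicate 1 of 6 h (0.052) and of 24 h (0.108). IKBKG (NEMO), the regulatory subunit, fell by 0.24 at 10 µM and 6 h (0.0067) and rose by 0.27 and 0.33 at 24 h (0.0032 and 4.0e-04). The first was lost without vehicle replicate 2 of 6 h (0.080) and the rise at 3 µM without vehicle replicate 1 of 24 h (0.060). MAP3K14, the NIK kinase of the non-canonical route, fell by 0.32 and 0.33 at 6 h, while in vehicle it fell by 0.45 from 6 to 24 h. At 24 h MAP3K14 did not pass against vehicle (-0.03 and -0.04, adjusted p = 0.61 and 0.45).

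Other IkB-family genes and modulators of NF-kB also leaned down at 6 h. Of 14, 3 rose and 6 fell at 3 µM and 3 rose and 8 fell at 10 µM. At 24 h 5 rose and 5 fell at 3 µM and 6 rose and 5 fell at 10 µM. Medians in this order were -0.12, -0.16, 0.17 and 0.13. Among all genes tested 29.7 to 34% rose and 30.9 to 33.6% fell. ITCH, a ubiquitin ligase that works with A20, fell by 1.23 at 10 µM and 6 h, from 174 ± 4.7 to 74.4 ± 3.5 CPM, and was at 181 ± 4 CPM in vehicle and 166 ± 0.93 CPM at 10 µM at 24 h. NFKBIZ, an inducible nuclear IkB protein, rose by 0.57 ± 0.09 (0.43 without replicate 1) and BCL3, another nuclear IkB, fell by 0.52 at 10 µM and 6 h, where NFKBIL1 fell by 0.62. At 24 h COMMD1, which promotes loss of RELA from chromatin, fell by 0.98 at 10 µM, from 20.4 ± 0.32 to 10.3 ± 0.32 CPM, while CYLD, a deubiquitinase that restrains the pathway, rose by 0.40. RELL1 rose by 0.47 and TNIP2, an A20-binding protein, by 0.30.

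Known target genes outside the 10 mostly rose at 10 µM and 6 h. Of 32 listed 26 were tested, and 19 rose and 3 fell there, with a median log2 fold change of 0.52, while at 3 µM 9 rose and 4 fell (0.28). Without replicate 1 of 10 µM, 18 rose and 4 fell at 10 µM and 14 rose and 5 fell at 3 µM. At 24 h 7 rose and 4 fell at 3 µM and 10 rose and 5 fell at 10 µM, with medians of 0.19 and 0.28, and without that library 14 rose and 4 fell at 3 µM and 14 rose and 5 fell at 10 µM. In the full fit 29.7 to 34% of all genes tested rose and 30.9 to 33.6% fell. Without replicate 1 of 10 µM at 6 h, 6608 to 7112 of all genes rose and 6903 to 7274 fell. The list was assembled with earlier results of these libraries known, so its direction is not independent evidence. A consensus match was found near the start of 14 of 27 target genes with a window (51.9%), against 7.09% of all genes in the promoter table. It was found for 6 of 13 other IkB-family genes and modulators (46.2%) and 3 of 10 ligands. For kinases and adaptors it was 2 of 22 and for receptors 0 of 13.

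The chemokines among the targets were unequal between the 10 µM libraries at 6 h. IL8 was at 3.47 and 3.83 CPM in vehicle at 6 h, 10.3, 7.38 and 7.30 CPM at 3 µM, and 86.6, 15.9 and 15.4 CPM at 10 µM. All treated libraries were above vehicle, and without replicate 1 IL8 was still higher by log2 2.09 (adjusted p = 5.9e-06). CXCL2 was at 1.59 and 1.82 CPM in vehicle and 12.3, 3.96 and 3.33 CPM at 10 µM, and CXCL3 at 3.11 and 3.35 against 13.3, 6.05 and 5.55 CPM. Without replicate 1 these rose by 1.09 and 0.84 in place of 1.95 ± 0.52 and 1.37 ± 0.33. With only the 2 groups fitted and replicate 1 included, IL8, CXCL2 and CXCL3 lost the call (0.11, 0.15 and 0.13). CCL20, a chemokine of mucosal epithelia, was more even, at 19.7 and 23.2 CPM in vehicle and 93.4, 79.6 and 60.4 CPM at 10 µM (1.86 ± 0.16, or 1.70 without replicate 1). IL8 was higher at 10 µM and 24 h by 2.54 ± 0.96 (adjusted p = 0.039). That call was lost with limma-voom (0.14) and with no count filter (0.067). It was also lost without 10 µM replicate 1, 2 or 3 of 24 h (0.057, 0.079 and 0.052). Without replicate 1 of 10 µM at 6 h in the fit, IL8 was at 2.54 (3.8e-06) there. At 24 h CCL20 was at 13.9 and 14.9 CPM in vehicle and 45.1, 45.9 and 42.3 CPM at 10 µM. It rose by 1.63 ± 0.17, and GADD45B and the transcription factor gene IRF1 rose by 0.99 and 0.68. IRF1 had fallen at 6 h, by 0.34 at 10 µM, from 10.0 ± 0.06 to 7.93 ± 0.49 CPM.

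**Figure D5:**
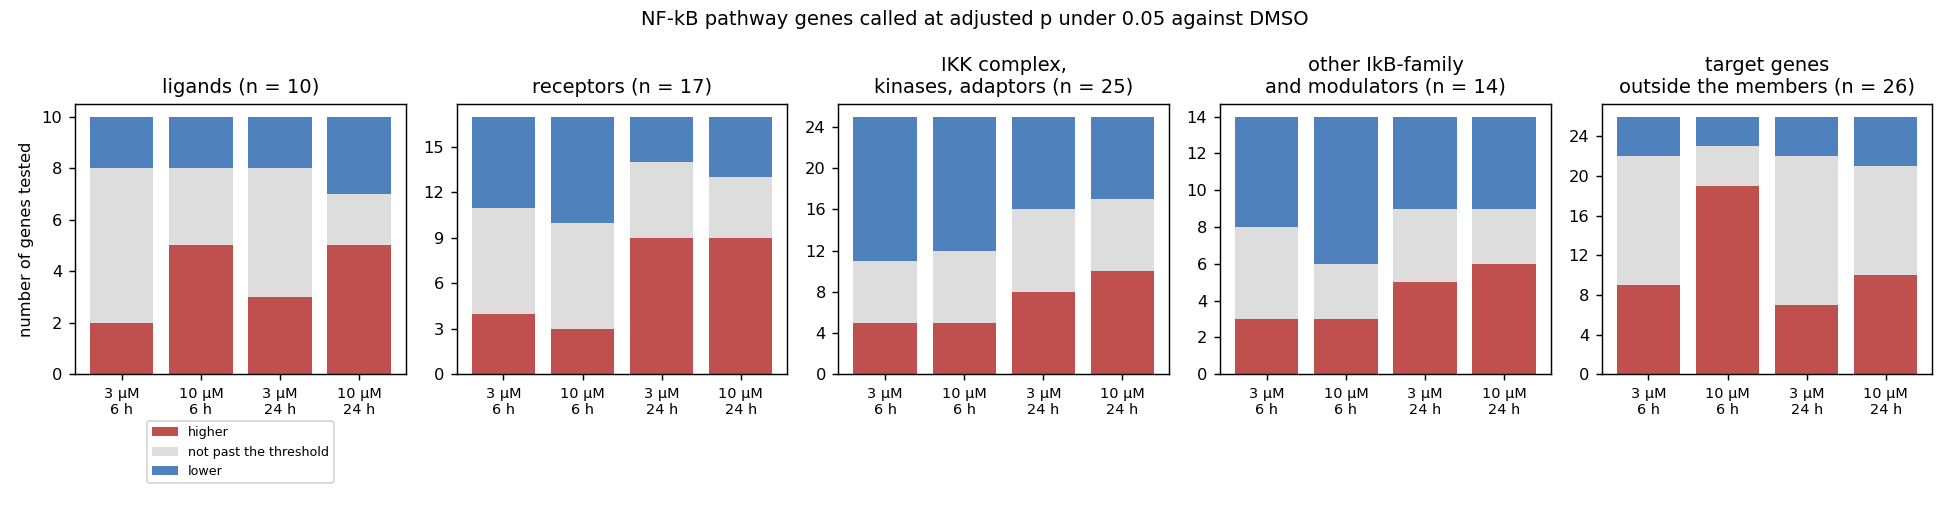
Number of genes tested (y axis) in each of 5 NF-kB pathway lists that were higher, lower or not past the threshold against DMSO, by dose and time (x axis). At 10 µM and 6 h 19 of 26 targets were higher, and 14 and 13 of 25 kinases and adaptors were lower at 6 h.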

How the data were processed

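The authors deposited, for every CAL51 library, a raw count of read pairs at each gene symbol. Strand-specific poly-A libraries were read as 2 x 100 bases per the labels' protocols. STAR, HTSeq, edgeR and hg19 (GRCh37) appear in the submitters' processing notes. Versions, strand setting and annotation were not given in the sources used here, so overlapping genes are uncertain. Non-gene entries (16.9 to 20.2% of pairs) were removed.

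Genes passing filterByExpr (minimum count 10, minimum total 15) were TMM scaled (factors 0.963 to 1.05). The 6 group means were fitted with robust quasi-likelihood and tested two-sided by F tests (edgeR 4.0.16, R 4.3.3) in 9 comparisons. Only the 4 comparisons with vehicle were checked on simulated data, which held no outlying library. The SE is the absolute log2 fold change over the square root of F.

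Members and lists were chosen with earlier results of these data known. All members are described. From a pathway list, up to 4 called genes of largest change with an average log2 CPM of 1 or more were named per comparison, and 4 kinases and 4 ligands always. TNFRSF1A and IRF1 at 6 h were singled out after their values were seen. OTULIN was matched by an older symbol and PECAM1 was not used here. Replicates differed by more than sampling noise. Alternatives were DESeq2 1.42.0, limma-voom (limma 3.58.1), RLE or no scaling, no filter on counts, 1 CPM in 5 libraries, a fit to the compared groups, a replicate block and leaving out libraries.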

Additional observations from a re-analysis of the deposited data

Results flagged for a closer look

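The effects of CC-671 at 6 and 24 h differed by a direct test for 4 genes at 3 µM and 5 at 10 µM. At 3 µM the difference in log2 fold change, 24 h minus 6 h, was 0.55 for NFKB2, -0.44 for NFKBIA, 0.37 for NFKBIE and 0.52 for BIRC3. At 10 µM it was 0.36 for NFKB2, -0.32 for REL, -0.55 for NFKBIA, 0.32 for NFKBIE and 0.51 for BIRC3. The 2 doses share their vehicle libraries, so these are not independent. NFKBIA and NFKBIE kept the call at both doses in all alternatives run, as did NFKB2 at 3 µM. For NFKB2 at 10 µM it was lost with only the 4 groups fitted, and for REL and BIRC3 it was lost in several.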

How the results depend on the processing

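No member reversed a called direction: of 1340 values of the 10 genes under alternatives, 1175 kept direction and side of the threshold, 83 lost a call, 54 gained 1, and 28 changed sign where neither value was called. RELA, RELB, NFKBIB, and at 6 h NFKBIA and NFKBIE, were called against vehicle in every alternative. The number of members called moved by more than 1.5 times in some settings. With only the groups compared it was 8 in place of 5 at 3 µM at 6 h and at 24 h, 0 in place of 5 between doses at 6 h, 3 in place of 1 between doses at 24 h, 5 in place of 3 in vehicle over time and 3 in place of 5 for the time difference at 10 µM. Between doses RLE gave 3 and 0 at 6 and 24 h, and no scaling factor gave 3 at 6 h, while no count filter gave 5 in vehicle over time. The cause was not tested. Over all genes, the number called against vehicle and for the time differences stayed within 1.5 times of the main fit in every setting. In the main fit 60.6 to 67.6% of all genes were called against vehicle, and 49.3 and 54% for the time differences.

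Leaving out a library gave 5 to 8 (3 µM) and 8 to 9 (10 µM) at 6 h, 4 to 6 and 4 to 7 at 24 h, 0 to 8 and 0 to 2 between doses at 6 and 24 h, 2 to 5 in vehicle, and 3 to 6 and 3 to 7 for the time differences. With 1 vehicle library left, it is assumed to vary like the other groups. Over all genes, 3420 in place of 5480 were called between doses at 6 h with only the groups compared, 654 to 3753 in place of 1397 at 24 h, and 2604 to 5266 in place of 4522 in vehicle.

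Correlations of deviations between same-numbered libraries were -0.08 to 0.08 over 36 pairs. The pairs share libraries, and whether same-numbered libraries were handled together was not tested. With the replicate number as a block, member calls were 5 and 8 at 6 h, 4 and 5 at 24 h, 3 and 0 between doses, 3 in vehicle, and 3 and 4 for the time differences; 7 calls were lost. Of 229 values of named pathway genes, 39 lost the call in at least 1 alternative and 0 reversed.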

Other observations

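Over the 16 libraries, the 3 genes with the highest Pearson correlation of log2 CPM to each of 4 members were looked up among 12187 genes whose mean log2 CPM reached 1. The libraries share groups, so these are descriptions without a test. NFKBIA, high at 6 h only, was closest to PRPF38B (r = 0.992), a splicing factor gene, TES (0.990) and TRIM27 (0.989). NFKB2 was closest to DDIT3 (0.993), the stress factor CHOP, EGR1 (0.985), an immediate-early transcription factor, and STK40 (0.984). RELB was closest to HERPUD1 (0.979), a gene of endoplasmic reticulum stress, NFIL3 (0.979) and MXD1 (0.969). TNFAIP3 was closest to the chemokine genes CXCL3 (0.979) and CXCL1 (0.974) and to the mitochondrial carrier gene SLC25A25 (0.975). NFKBIA and NFKB2 thus had different nearest genes, and of the 4 only TNFAIP3 had chemokine genes among its 3. Replicate 1 of 10 µM at 6 h was high for both TNFAIP3 and CXCL3 and bears on that Pearson value. By rank (Spearman), TNFAIP3 correlated at 0.968 with CXCL3 and 0.982 with CXCL1. NFKBIA was lower by rank, at 0.879 with PRPF38B, 0.909 with TES and 0.782 with TRIM27. The other pairs listed were at 0.956 to 0.979 by rank.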
